A study of Mus musculus with 38 samples.

Results

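Sites bound by CREB in the liver of fed mice were compared with sites bound by CREB in mouse hepatocytes that had been isolated and left without hormone. The members were all regions of the authors' fed liver CREB list (13142 sites) and of their untreated hepatocyte CREB list (47596 sites), 60738 regions of 278566 in the 11 lists used here. A site was called shared when it had at least 1 base in common with a site of the other list, and the remaining sites were called fed liver only or hepatocyte only. Each list gives, for every site, the authors' maximum tag density, and sites were ranked by that density within their own list, rank 1 being the densest. Densities were not compared between the lists.

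The study measured binding in the liver of fed and fasted C57BL/6 mice and in primary hepatocytes of the same strain, by chromatin immunoprecipitation and sequencing, in 38 samples of 15 groups. The fed liver CREB group has 3 samples with a feeding label of 24 h, and the name of its list gives the libraries of replicates 1 and 3. The untreated hepatocyte group is 1 sample of cells isolated by collagenase perfusion, with no glucagon and no corticosterone, and its list names that library alone. Both groups were precipitated with the same rabbit monoclonal antibody against CREB. The lists set beside them came from liver fed or fasted for 24 h (CREB and phospho-CREB), from liver fed or fasted for 10 or 24 h (acetylated histone H3 lysine 27, H3K27ac), and from hepatocytes given 10 nM glucagon for 1 h, alone or with 1.7 µM corticosterone (CREB, and the glucocorticoid receptor, GR, for both hormones together).

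CREB is a transcription factor that binds cyclic AMP response elements in promoters and enhancers. In the fasted liver, glucagon raises cyclic AMP in hepatocytes, protein kinase A phosphorylates CREB, and phosphorylated CREB recruits coactivators to genes of glucose production. Much CREB is on DNA before it is phosphorylated, so lists of CREB and of phospho-CREB answer different questions. Liver tissue holds Kupffer, endothelial, stellate and bile duct cells beside hepatocytes, and isolated hepatocytes have been through enzyme digestion of the tissue. In these samples tissue, isolation, library and list preparation all differ together and cannot be told apart.

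No list holds values for single libraries, so differences have no replicate check and no test was made. Intervals are Wilson intervals at 95% and cover counting error only. Read depth is unknown. The fed liver list holds 65.7% of its highest running number (19990) and the hepatocyte list 99.6% of its own (47775), so the lists may have been filtered differently. Median site width was 487 bp in the fed liver list and 464 bp in the hepatocyte list, and the sites covered 7.53 Mb and 27.6 Mb. The lists name no genes, and sites are given by position on build mm9; no annotation of that build was used here.

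Tissue and isolated cells shared a core of CREB sites, and each list held many sites of its own. Of the fed liver sites, 6420 of 13142 (48.9%, interval 48.0 to 49.7) lay on a hepatocyte site, and 6722 did not. Of the hepatocyte sites, 6338 of 47596 (13.3%, interval 13.01 to 13.62) lay on a fed liver site, and 41258 did not. The share of a longer list is limited by the length of the shorter one, so the hepatocyte list was also limited to its 13142 densest sites, which ended at a density of 15.4. At equal length 5099 fed liver sites (38.8%, interval 38.0 to 39.6) and 4962 hepatocyte sites (37.8%, interval 36.9 to 38.6) were shared. The limit removed the partner of 1321 of the 6420 shared fed liver sites (20.6%).

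Sharing depended on rank in both lists. Every one of the 300 densest hepatocyte sites, and 994 of the 1000 densest (99.4%, interval 98.7 to 99.7), lay on a fed liver site. The share was 84.6% at hepatocyte ranks 1001 to 3000, 45.4% at ranks 3001 to 5000 and 26.5% at ranks 5001 to 7500. It then went on down to 10.2% at ranks 10001 to 13142 and 3.31% at ranks 30001 to 47596. The densest hepatocyte sites were therefore almost all fed liver sites, and the 41258 hepatocyte-only sites were mainly of low rank, with a median rank of 26258.5 against 3885 for the shared ones.

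The fed liver list showed the same decline except at its very top. Among its 33 densest sites 2 were shared (6.06%, interval 1.68 to 19.6), while 60 of the 67 sites at ranks 34 to 100 (89.6%, interval 80.0 to 94.8) and 821 of the next 900 (91.2%) were. The share was 75.4% at ranks 3001 to 5000, 59.0% at ranks 5001 to 7500, 24.3% at ranks 7501 to 10000 and 9.23% at ranks 10001 to 13142. Most of the fed liver sites without a hepatocyte partner (5768 of 6722) had ranks beyond 5000, with a median density of 4.24 against 13.5 for shared fed liver sites.

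**Figure D1:**
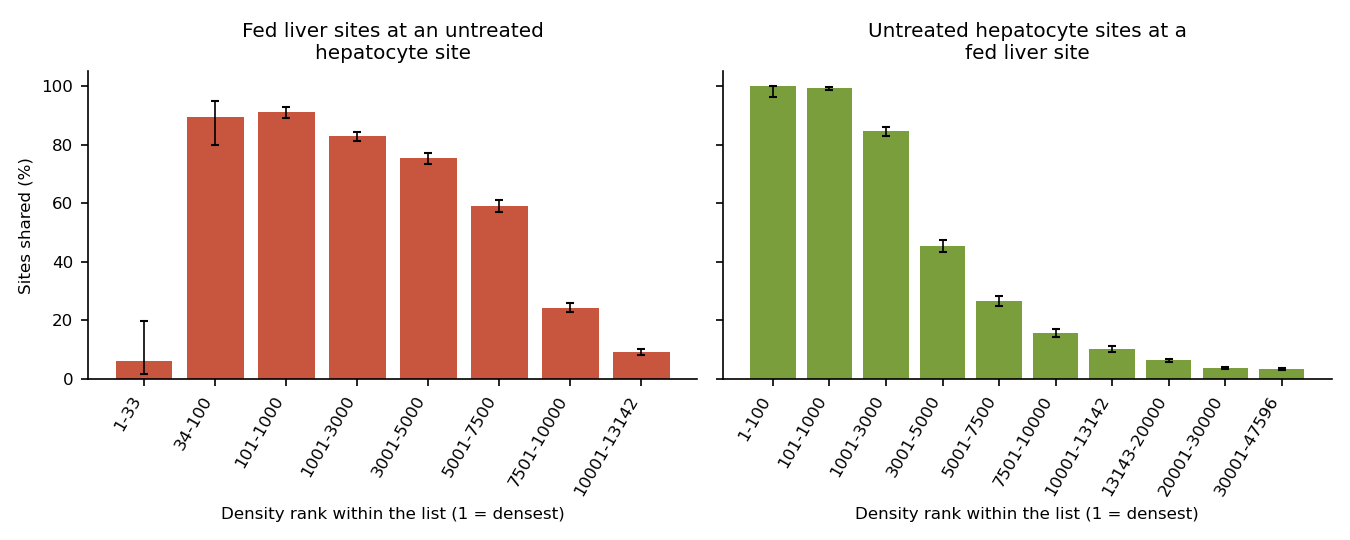
Percent of sites lying on a site of the other list (vertical axis) by band of density rank within each list (horizontal axis), with Wilson intervals for counting error. The hepatocyte list starts at 100% and ends at 3.31%, and the fed liver list starts at 6.06% for its 33 densest sites, reaches 91.2% for the 900 sites after rank 100 and ends at 9.23%.

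Sites near the top of both lists show what a strong common CREB site looked like. The densest hepatocyte site, chr7:52972681-52974281, with a density of 1042, overlapped the fed liver site chr7:52972717-52974073, with a density of 544.2 and rank 41. The fed liver site chr13:46822970-46823905 had rank 37 (density 676.7) and its hepatocyte partner rank 4 (density 840.7). Both were broad sites near the head of each list.

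The same held for chr4:126354254-126355520, of rank 39 in fed liver and 8 in hepatocytes, for chr5:125028442-125029740 (40 and 6), for chr4:138935787-138936955 (42 and 3) and for chr5:65782051-65783370 (43 and 10). The fed liver site chr3:84617809-84619021 ranked 44 and 45, and chr17:15177838-15179189 ranked 45 and 32. These 8 fed liver sites were also in the fasted liver CREB list, in both liver phospho-CREB lists and in both hormone-treated hepatocyte CREB lists. None of the 8 lay on a GR site as called in fed liver, but the wider hepatocyte call on chromosome 7 did (GR rank 5479). Of the 8, 6 lay in fed liver H3K27ac, which marks promoters and enhancers in active use, and the sites on chromosomes 5 (from 125028442) and 17 did not.

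Where a fed liver site and a hepatocyte site overlapped each other and nothing else, their ranks went together. There were 6056 such pairs among 6491 overlaps. The Spearman correlation of density over the pairs was 0.83, a description across sites, which are not independent and share the libraries behind their list. Of the 605 pairs in the upper 10% by fed liver density, 490 (81.0%) were in the upper 10% by hepatocyte density. The order of tag density over these pairs was thus largely common to the lists of tissue and isolated cells.

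**Figure D2:**
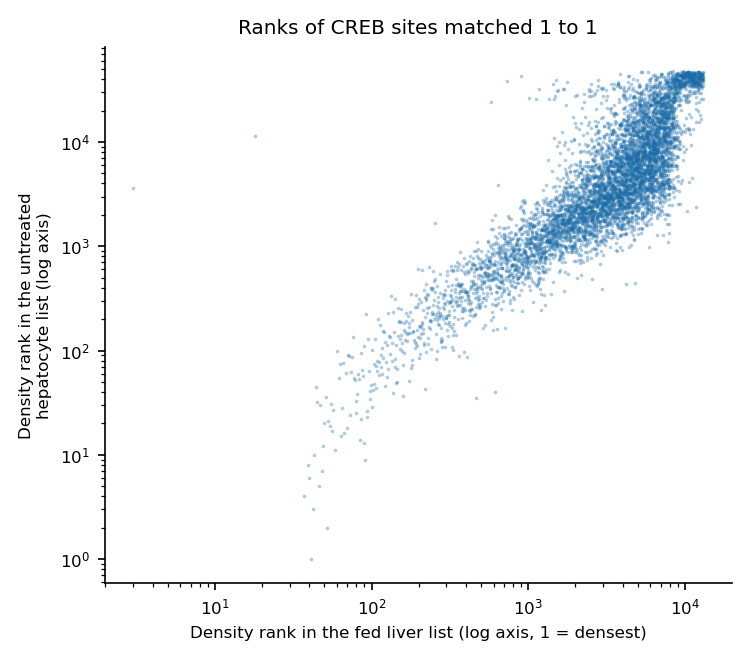
Density rank in fed liver (horizontal axis) against density rank in untreated hepatocytes (vertical axis) for the 6056 pairs of sites that overlapped only each other, both on log axes with rank 1 the densest and each point 1 pair. The points follow a rising band, with a Spearman correlation of density of 0.83.

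The hepatocyte call was the wider one in 5194 of the 6056 pairs (85.8%). The median width was 630.5 bp in fed liver and 1020 bp in hepatocytes, and the median ratio was 1.47 (quartiles 1.15 and 2.02). In 4089 pairs (67.5%) the fed liver site lay wholly inside the hepatocyte site, and the midpoints were a median of 88 bp apart (quartiles 38 and 169). Shared positions thus mostly had the same centre and differed in extent.

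Pairs with the largest rank differences were sought at equal list length, among the 4817 pairs whose hepatocyte site was within the 13142 densest. In fed liver chr14:15178364-15179043 ranked 1645 and chr4:152266926-152267695 ranked 2380, and their hepatocyte partners ranked 12498 and 12316. The pairs at chr17:79388159-79388868 (2789 in fed liver, 12954 in hepatocytes) and chr7:72838034-72838659 (2842 and 12645) also stood higher in fed liver. Counted over the whole lists these 4 pairs lay 12.5% to 21.6% from the top in fed liver and 25.9% to 27.2% in hepatocytes. The largest difference in this direction was at chr1:74061287-74061888, which ranked 18 in fed liver and 11411 in hepatocytes. That pair, described further below, lay 0.137% and 24.0% from the top. The hepatocyte places were bounded by the search itself, which took no partner beyond rank 13142, so their nearness is not a result. Some pairs outside that limit joined a high fed liver rank to a far lower hepatocyte rank, and they are not named here. All 5 named fed liver sites lay in fed liver H3K27ac.

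In the opposite direction, chr19:5366568-5366819 ranked 11696 in fed liver and 2390 in hepatocytes, and chr16:20097253-20097504 ranked 10363 and 2188. The pairs at chr11:119463819-119464070 (9264 and 2541), chr13:86186379-86186749 (7792 and 1089) and chr11:114529483-114529734 (11162 and 4476) stood apart in the same way. None of the 5 fed liver sites lay on a fasted liver CREB site or a phospho-CREB site, all 5 lay on a site of both hormone-treated hepatocyte CREB lists, and 4 lay in fed liver H3K27ac. Over the whole lists these sites lay 59.3% to 89.0% from the top in fed liver and 2.29% to 9.40% in hepatocytes, so they stood low in the one list and high in the other at either length.

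The densest fed liver sites had no counterpart in the hepatocytes and had another shape. The 5 densest without a partner were chr10:121199950-121200547 (density 51733), chrX:141949414-141949966 (34284), chr13:45493828-45494387 (33037), chr14:46432316-46432695 (28518) and chr16:93686787-93687211 (17055). The nearest hepatocyte site was 22286, 9264, 136190, 51113 and 10500 bp away. All 5 lay on sites of the fasted liver CREB list and of both liver phospho-CREB lists, and none lay on a hepatocyte CREB, GR or H3K27ac site.

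The ratio of a site's average to its maximum density describes its shape, since a flat block has a high ratio and a pointed peak a low one. In the 33 fed liver sites with a density above 1000 it ran from 0.573 to 0.595 (median 0.587), and their median width was 467 bp. The last of them had a density of 1039 and the next site 998.9. In the 60 shared fed liver sites at ranks 34 to 100 the ratio ran from 0.337 to 0.409 (median 0.362), with a median width of 1297 bp, and in the 33 densest hepatocyte sites from 0.331 to 0.390 (median 0.365). The extreme sites and the strong shared sites did not overlap in shape.

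The 7 unshared fed liver sites at ranks 34 to 100 ranged from 0.491 to 0.591 (median 0.587), like the sites above 1000. Among the 100 densest fed liver sites 39 had a ratio over 0.5, and 2 of these were shared. None of the 1000 densest hepatocyte sites did, their highest ratio being 0.442. Over the whole lists a ratio above 0.5 was about as frequent in both, at 272 fed liver sites (2.07%) and 1089 hepatocyte sites (2.29%), so the difference concerned the densest sites. Whether these places reflect binding was not tested.

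The 2 shared sites among these 33 overlapped their hepatocyte partners only in part. The site chr7:97590135-97590780 (density 33170, rank 3) had 164 bases in common with a hepatocyte site of rank 3634, and their midpoints were 664 bp apart. The site chr1:74061287-74061888 (density 3383, rank 18) had 211 bases in common with one of rank 11411, with midpoints 281 bp apart. Both distances exceeded the median of 88 bp over all pairs.

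**Figure D3:**
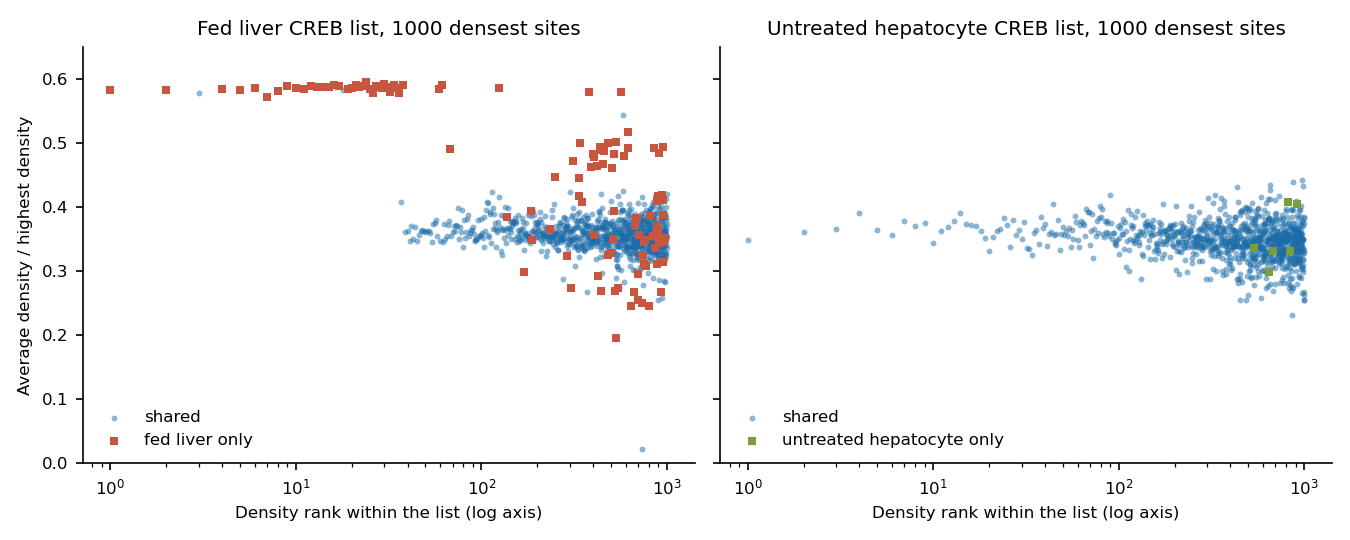
Ratio of average to maximum density (vertical axis) against density rank on a log axis (horizontal axis) for the 1000 densest sites of fed liver and of hepatocytes, each point 1 site, shared or unshared. The 33 fed liver sites of density above 1000 lie at 0.573 to 0.595, and the 33 densest hepatocyte sites at 0.331 to 0.390.

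Shared, fed liver only and hepatocyte only sites differed in what else lay on them. In fed liver H3K27ac were 4554 of the 6420 shared fed liver sites (70.9%), 555 of the 6722 fed liver only sites (8.26%) and 13866 of the 41258 hepatocyte only sites (33.6%), where all fed liver sites gave 38.9% and all hepatocyte sites 38.7%. With the hepatocyte list at equal length the last 2 shares were 13.7% and 67.1%, and with hepatocyte sites restricted to those also in a hormone-treated list the hepatocyte only share was 52.5%. H3K27ac of liver fasted for 10 h lay on 81.1%, 30.1% and 41.3%, against 55.0% of all fed liver and 46.7% of all hepatocyte sites. After 24 h of fasting the shares were 72.6%, 9.02% and 33.9% (40.1% and 39.1% of all), close to the fed values, so the higher share at fed liver only sites was seen in the 10 h list alone. The 10 h list was also the longest, with 47777 regions over 52.6 Mb. The fed list had 29917 regions (35.4 Mb) and the 24 h list 32103 (37.0 Mb). The H3K27ac lists were not brought to equal length, and the part of length in the 10 h shares was not tested. Acetylated liver chromatin was thus most frequent at shared sites and least frequent at fed liver only sites, and the hepatocytes have no H3K27ac list here.

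The hormone-treated hepatocytes held most shared sites. Glucagon-treated CREB sites lay on 88.8% of the shared, 4.60% of the fed liver only and 36.3% of the hepatocyte only sites (45.7% of all fed liver and 43.3% of all hepatocyte sites). With glucagon and corticosterone the shares were 91.4%, 5.64% and 49.9% (47.5% and 55.4% of all). At least 1 of these lists covered 5961 shared sites (92.9%) and 535 fed liver only sites (7.96%), against 49.4% of all fed liver and 58.2% of all hepatocyte sites. Few fed liver only sites were therefore CREB sites in hepatocytes of any treatment.

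The fasted liver lists divided the classes in another way. Fasted liver CREB sites lay on 67.2% of the shared, 39.4% of the fed liver only and 2.21% of the hepatocyte only sites (53.0% of all fed liver and 10.9% of all hepatocyte sites). Fed liver phospho-CREB sites lay on 26.4%, 32.1% and 0.737% (29.3% and 4.2% of all). Sites of GR, the receptor through which corticosterone acts, lay on 16.6%, 11.1% and 8.52% (13.8% and 9.74% of all). Fasted liver phospho-CREB sites lay on 13.8%, 30.7% and 0.725% (22.4% and 2.49% of all). Among the lists compared, the phospho-CREB lists alone covered a larger share of fed liver only than of shared sites. Of the fed liver only sites, 3976 (59.1%) lay on a site of at least 1 other list, as did 26279 of the hepatocyte only sites (63.7%) and 6277 of the shared fed liver sites (97.8%), against 78.0% of all fed liver and 68.2% of all hepatocyte sites.

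**Figure D4:**
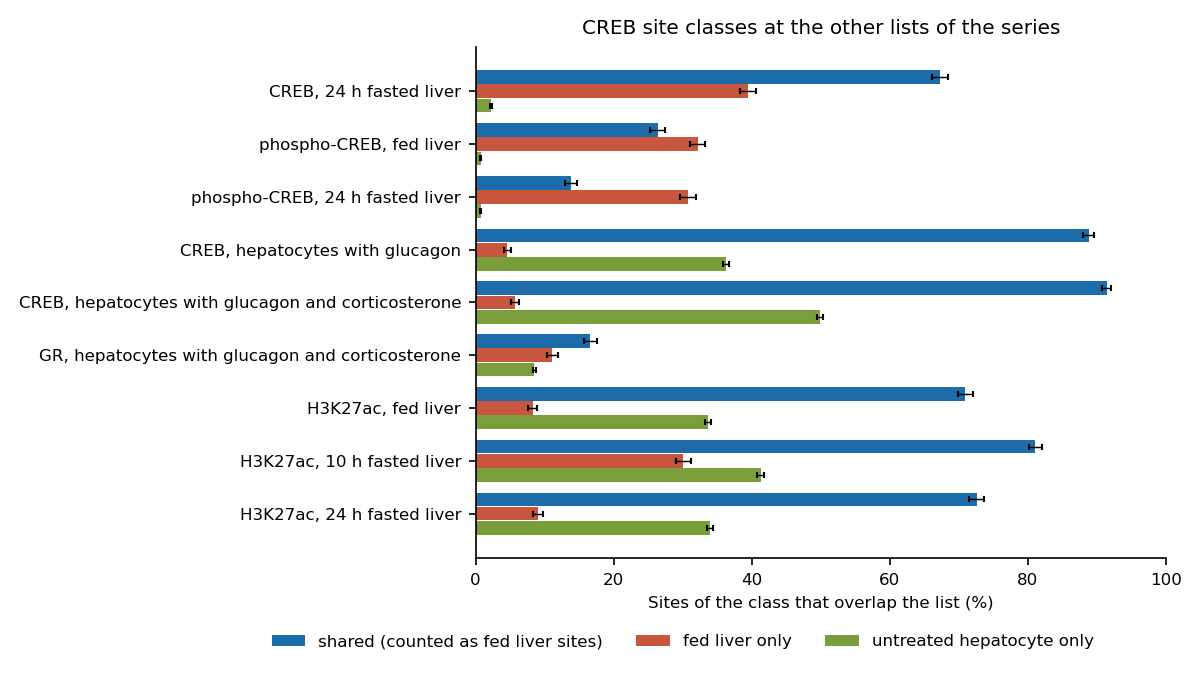
Percent of shared, fed liver only and hepatocyte only CREB sites (horizontal axis) lying on a site of each other list (vertical axis), with Wilson intervals for counting error. Fed liver H3K27ac covers 70.9%, 8.26% and 33.6% of the 3 classes, and fed liver phospho-CREB 26.4%, 32.1% and 0.737%.

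Because unshared sites were weaker, the classes were also set side by side within ranges of rank. After the 100 densest, fed liver sites up to rank 5000 comprised 3984 shared and 916 fed liver only sites. Fasted liver CREB sites lay on 91.9% of the fed liver only and 84.8% of the shared sites, so strong fed liver sites missing from hepatocytes were as a rule present in the fasted liver. Glucagon-treated hepatocyte CREB sites lay on 55 of the fed liver only sites (6.00%) and 3884 of the shared ones (97.5%). Strong fed liver only sites were thus mostly in the fasted liver CREB list and seldom in the glucagon-treated hepatocyte CREB list. The class itself fixed their presence in the fed liver list and absence from the untreated hepatocyte list.

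In the same range 757 of the 916 fed liver only sites (82.6%, interval 80.1 to 85.0) lay on a fed liver phospho-CREB site, against 1385 of the 3984 shared sites (34.8%, interval 33.3 to 36.3). Fasted liver phospho-CREB sites lay on 81.4% and 15.4%. GR sites of hormone-treated hepatocytes lay on 260 fed liver only sites (28.4%, interval 25.6 to 31.4) and 535 shared sites (13.4%, interval 12.4 to 14.5). Fed liver H3K27ac went the other way, at 276 fed liver only (30.1%) and 3155 shared sites (79.2%). The 24 h fasted H3K27ac list was close to the fed one, at 34.8% and 81.2%. The 10 h fasted list, the longest of the H3K27ac lists, stood apart, at 75.9% and 86.3%.

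The phospho-CREB difference was not present at every rank. After the 100 densest and up to rank 1000, phospho-CREB sites of fed liver lay on 95.1% of shared and 91.1% of fed liver only sites. At ranks 1001 to 3000 the shares were 30.0% and 92.2%, and at ranks 3001 to 5000 they were 7.16% and 74.6%. At ranks 10001 to 13142 the order was the opposite, 25.9% against 15.6%. The gap therefore lay in the middle of the list, where few shared sites and most fed liver only sites lay on phospho-CREB sites.

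**Figure D5:**
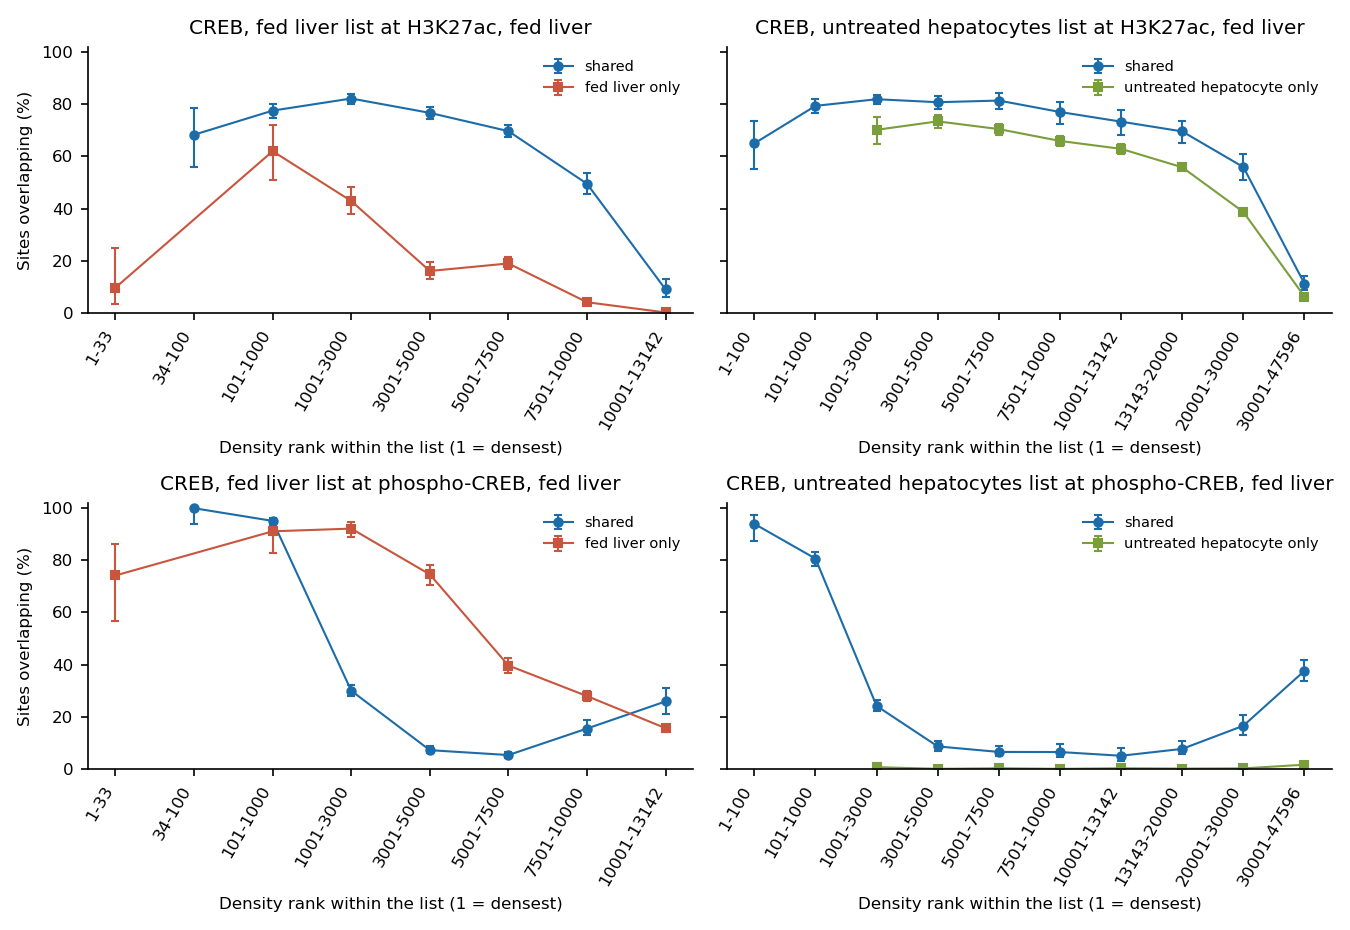
Percent of shared and unshared sites lying on fed liver H3K27ac or fed liver phospho-CREB sites (vertical axes) by band of density rank (horizontal axes), with Wilson intervals and bands of under 20 sites left out. At fed liver ranks 1001 to 3000 phospho-CREB covers 92.2% of unshared and 30.0% of shared sites, and at hepatocyte ranks 1001 to 3000 H3K27ac covers 70.2% of unshared and 82.0% of shared sites.

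The sex chromosomes held many of the strong fed liver only sites. Of the 916 after rank 100 and up to rank 5000, 375 (40.9%, interval 37.8 to 44.2) lay on chromosome X and 106 on chromosome Y. Of the 3984 shared sites 103 (2.59%) lay on X and 8 on Y. Of all fed liver sites 8.59% lay on X and 1.10% on Y. On the autosomes alone, with 435 fed liver only and 3873 shared sites, fed liver phospho-CREB sites lay on 76.1% and 34.1%, GR sites on 27.1% and 12.9%, fed liver H3K27ac on 24.6% and 79.3%, and glucagon-treated CREB sites on 7.59% and 98.1%. Each of these differences thus kept its direction without the sex chromosomes.

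Over the whole list chromosome X carried 13.5% of the fed liver only sites (907, interval 12.7 to 14.3), 3.46% of the shared fed liver sites (222) and 4.18% of the hepatocyte only sites. The X share of entire lists was 8.59% for fed liver CREB and 4.09% for untreated hepatocyte CREB. It was 9.72% for fasted liver CREB, 12.9% and 14.0% for fed and fasted liver phospho-CREB, 2.61% for CREB with glucagon and 2.49% with both hormones. The 4 liver CREB and phospho-CREB lists thus each had more of their sites on X than any of the 3 hepatocyte CREB lists. The liver H3K27ac lists did not have this high X share, at 2.86% for fed, 4.22% for 10 h fasted and 3.02% for 24 h fasted liver. The hepatocyte GR list had 5.32% of its sites on X. The Y share was 1.10% for fed and 1.25% for fasted liver CREB, and 1.64% and 1.76% for fed and fasted liver phospho-CREB. It was 0.0735% for untreated hepatocyte CREB, 0.0638% with glucagon, 0.0428% with both hormones and 0.488% for GR. For fed, 10 h fasted and 24 h fasted H3K27ac it was 0.308%, 0.266% and 0.315%. Whether the animals of the tissue and the cells were of the same sex is not given in the labels, and its part in the result was not tested.

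Fed liver only sites on X were stronger than those on the autosomes, with a median density of 9.28 against 3.85 and a median width of 479 bp against 390 bp. Fasted liver CREB sites lay on 73.9% of the X sites and 32.9% of the autosomal ones, and 10 h fasted H3K27ac on 59.9% and 24.3%. Fed liver H3K27ac lay on 13.2% and 6.5%, and 24 h fasted H3K27ac on 15.0% and 6.99%. Over all fed liver sites on X and on the autosomes, fasted liver CREB lay on 73.3% and 50.7%, and 10 h fasted H3K27ac on 64.3% and 53.9%. Fed liver H3K27ac lay on 22.5% and 40.3% of all, and 24 h fasted H3K27ac on 24.6% and 41.4%. Of all 1129 X sites 907 were fed liver only, so the values over all X sites mostly repeat that class. Shared X sites lay on fasted liver CREB at 71.2%, and in 10 h fasted, fed and 24 h fasted H3K27ac at 82.4%, 60.4% and 64.0%. Fed liver only X sites thus lay on fasted liver CREB about as often as shared X sites, and in H3K27ac less often. Among single sites, chosen after their values were seen, chrX:120113513-120119998 ranked 440 in fed liver and was 6486 bp wide, and chrX:120776679-120778837 ranked 503. They overlapped the GR sites of rank 177 and 203.

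Most of the stronger hepatocyte only sites recurred in the hormone-treated hepatocytes. At hepatocyte ranks 1001 to 10000, 5351 sites were hepatocyte only and 3649 shared. Of the hepatocyte only ones 4873 (91.1%, interval 90.3 to 91.8) lay on a CREB site of glucagon-treated and 5154 (96.3%, interval 95.8 to 96.8) on one of glucagon and corticosterone-treated hepatocytes, while 370 (6.91%) lay on a fasted liver CREB site and 6 (0.112%) on a fed liver phospho-CREB site. Over all hepatocyte sites the shares on these lists were 43.3%, 55.4%, 10.9% and 4.2%. Of the 1000 densest hepatocyte sites, nearly all of them shared, 1000 lay on both treated lists. A high overlap with the treated lists was therefore not particular to hepatocyte only sites. The hepatocyte only sites of ranks 1001 to 10000 were thus mostly present in the treated hepatocytes too, and mostly missing from the fasted liver CREB list. Their absence from the fed liver CREB list was set by the class.

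Most of these places were nevertheless acetylated in liver. Fed liver H3K27ac lay on 3708 of the 5351 (69.3%, interval 68.0 to 70.5) and on 81.1% of the shared sites in the same range (interval 79.8 to 82.3). By rank, H3K27ac covered 70.2% of hepatocyte only and 82.0% of shared sites at ranks 1001 to 3000, and 73.5% and 80.8% at ranks 3001 to 5000. At ranks 20001 to 30000 the shares were 38.7% and 55.9%, and at ranks 30001 to 47596 they were 6.22% and 11.2%. Within a band of rank the gap between hepatocyte only and shared sites was narrower than the gap of 30.1% against 79.2% between fed liver only and shared sites, a difference that was not tested.

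The densest hepatocyte only sites were few. The first was chr8:19784209-19785260 at rank 538 (density 166.4), followed by chr17:39979783-39985931 at rank 649, which was 6149 bp wide, was the GR site of rank 3 and lay in no H3K27ac. Next came chr11:3023468-3024655 at rank 683, chr19:61275276-61276027 at rank 820 and chr7:35444690-35446137 at rank 839. The site on chromosome 19 overlapped the densest fed liver H3K27ac region and that on chromosome 11 the one of rank 3. All 5 were in both hormone-treated hepatocyte CREB lists, 4 of 5 lay in fed liver H3K27ac, and none lay on a phospho-CREB site. The chromosome 7 site was 3989 bp from the nearest fed liver site and lay on the fasted liver CREB site of rank 2960.

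The agreement of the strongest sites was set beside that of other pairs of lists. Of the 1000 densest fed liver sites, 76.9% (interval 74.2 to 79.4) lay on one of the 1000 densest hepatocyte sites. The value was 90.1% for fed against fasted liver, 73.7% for untreated against glucagon-treated hepatocytes, 73.8% for fasted liver against untreated hepatocytes and 65.6% for fed liver against glucagon-treated hepatocytes. With the 10000 densest sites of each, fed liver against untreated hepatocytes gave 47.7%, untreated against glucagon-treated hepatocytes 73.0% and fed against fasted liver 63.0%. These pairs share lists, so the values are given side by side only. The strongest 1000 sites matched between fed liver and untreated hepatocytes about as often as between untreated and glucagon-treated hepatocytes, and the longer lists did not. The 10000 densest sites are most of the fed (13142) and fasted (11339) liver lists. They are a smaller part of the untreated (47596) and glucagon-treated (28229) hepatocyte lists, so the longer lists set unlike parts side by side.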

How the data were processed

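Peak (hotspot) lists for mouse build mm9 were used as deposited. The submitters' processing notes name CASAVA 1.8 and mm9. Settings of the peak caller were not given in the sources used here, and the list names give the libraries the authors pooled. The authors deposited maximum and average tag density as a signal whose scaling is not stated, a z-score (score) and a p-value per site, per the file headers. These are the authors' values and served only to describe and rank sites within a list. The members and lists were chosen with earlier results of these data known. Lists were assigned to groups by name, and 2 lists with 8 value columns that matched no sample were not used. Depth and values of single libraries are unknown, so n is 1 list per group and no test was made.

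Overlap required at least 1 shared base, computed in Python 3.11.15 with numpy 2.4.6, pandas 2.3.3 and SciPy 1.17.1, and drawn with matplotlib 3.10.9. bedtools 2.31.1 gave the same counts, and all 900 planted overlaps were recovered in 5 of 5 simulated runs of 2000 and 6000 sites. Named sites were the densest shared, the densest unshared of each list, and the pairs with the largest rank difference among 1-to-1 pairs of the equal-length lists. Gene context and sequence motifs were not analysed here.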

Additional observations from a re-analysis of the deposited data

How the results depend on the processing

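Of 52 recomputed values, 36 stayed within 1.5 times of the count or within the counting interval, and 16 moved. With the 5000 densest sites of each list, 3186 fed liver (63.7%) and 3154 hepatocyte sites (63.1%) were shared. The counts were lower by construction, while the shares were above the 38.8% and 37.8% of the main equal-length lists. With the upper 50% of each list the counts stayed within the limit, but the shares were 74.2% of fed liver and 20.2% of hepatocyte sites. The share in fed liver H3K27ac (70.9% of shared, 8.26% of fed liver only, 33.6% of hepatocyte only sites) became 65.5% of shared and 29.25% of hepatocyte only sites when overlap had to cover 50% of a site. It became 8.99% of fed liver only and 35.7% of hepatocyte only sites when sites within 500 bp counted as shared, and 55.7% of shared and 24.6% of hepatocyte only sites with windows of 500 bp. Without chromosomes X and Y it was 6.51% of fed liver only and 34.4% of hepatocyte only sites. At equal length it was 78.6% of shared, 13.7% of fed liver only and 67.1% of hepatocyte only sites. With hepatocyte sites that are also in a hormone-treated list (27699 of 47596, 58.2%), an alternative chosen after seeing the data, it was 75.2% of shared and 52.5% of hepatocyte only sites. The order of the 3 classes was the same in each of these. The rank correlation of paired sites was 0.710 by z-score. The cause of these moves was not tested. No paired analysis was possible because each list pools its libraries and the untreated hepatocyte group has 1 sample. For the same reason leaving out single libraries was not run, and gene lists, start-site distances and motifs were not run without a matching genome.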

Other observations

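Unshared sites were rarely near misses. Of the 6722 fed liver only sites, 382 (5.68%) lay within 500 bp and 1760 (26.2%) within 5000 bp of a hepatocyte site, and the median distance was 18163.5 bp. Of the 41258 hepatocyte only sites, 922 (2.23%) lay within 500 bp and 4713 (11.4%) within 5000 bp of a fed liver site. Among the autosomes the shared share of fed liver sites ran from 40.8% on chromosome 14 to 70.1% on chromosome 11, and that of hepatocyte sites from 10.9% on chromosome 14 to 17.2% on chromosome 17.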
